A study of Mus musculus with 6 samples.

Results

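The genes described here are those of the E2F transcription factors, E2f1 to E2f8, and of 2 of the pocket proteins, Rb1 and Rbl1. Pocket proteins hold some of the E2F factors in check. These 10 genes were taken by symbol from the table of counts per gene. Of these 10 symbols 9 were found among the 29493 genes of the table, and E2f6 is not analysed here. Levels of messenger RNA were measured by RNA sequencing in 6 libraries of the mouse cell line HT22, which was established from hippocampal tissue and grows in culture as dividing cells. All 6 libraries came from the engineered derivative HT22-TR/TO-V5Klf13-1, in which a V5-tagged copy of Klf13 is switched on by doxycycline through the tet repressor. Cells were kept for 8 hours with 1 µg/ml doxycycline (Dox, n = 3) or with vehicle (n = 3). KLF13 is a zinc-finger transcription factor that binds GC-rich and CACCC-type DNA. The labels say neither whether the line is a single clone nor whether each sample was its own culture. The tests therefore rest on the variation among these 6 samples, and that variation may be technical only. No sample had doxycycline without the transgene, so effects of the drug and of KLF13 cannot be told apart.

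E2F factors bind DNA next to genes needed for DNA synthesis and cell division. E2F1, E2F2 and E2F3 chiefly activate them, E2F4 and E2F5 chiefly repress them in quiescent and early G1 cells, and E2F7 and E2F8 are atypical repressors that bind DNA without a DP partner. The pocket proteins RB (Rb1), its relative from Rbl1 and a further relative from Rbl2 bind some of these E2Fs and block activation. Phosphorylation by cyclin-dependent kinases releases the bound E2Fs as cells pass from G1 into S phase. Several E2f genes and Rbl1 are themselves known targets of E2F factors.

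Promoter sequences are shown for the 3 members with the largest fold changes, E2f2, Rbl1 and E2f3, because the letters recognised by E2F and KLF proteins can be read in them. Each run holds the 250 bases before a RefSeq transcript start (GRCm38.p6), 5′ to 3′ on the strand of the gene. Capitals mark matches, on either strand, to an E2F-type motif (TTTCCCGC, TTTCGCGC, TTTGCCGC or TTTGGCGC), a GC box (GGGCGG) or a CACCC box (CACCC).
E2f2, plus strand, chr4:136172024-136172273: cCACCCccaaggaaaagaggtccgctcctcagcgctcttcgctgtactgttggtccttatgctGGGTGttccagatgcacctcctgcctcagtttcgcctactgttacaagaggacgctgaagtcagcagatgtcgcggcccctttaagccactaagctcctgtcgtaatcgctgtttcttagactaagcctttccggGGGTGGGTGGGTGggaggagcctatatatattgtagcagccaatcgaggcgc
Rbl1, minus strand, chr2:157204535-157204784: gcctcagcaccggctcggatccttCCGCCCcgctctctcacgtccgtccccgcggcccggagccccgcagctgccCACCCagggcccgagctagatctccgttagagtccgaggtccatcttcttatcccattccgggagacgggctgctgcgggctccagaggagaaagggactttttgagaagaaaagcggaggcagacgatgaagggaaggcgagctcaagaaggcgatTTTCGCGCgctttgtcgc
E2f3, minus strand, chr13:29986064-29986313: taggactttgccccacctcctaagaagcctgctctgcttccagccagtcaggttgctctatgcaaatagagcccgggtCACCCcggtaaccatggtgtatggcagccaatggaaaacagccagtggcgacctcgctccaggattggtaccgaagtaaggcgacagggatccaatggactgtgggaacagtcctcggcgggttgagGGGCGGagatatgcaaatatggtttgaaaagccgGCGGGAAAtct
The E2f2 run held 5 CACCC matches, 3 of them overlapping one another at 52 to 40 bases before the start, and 0 GC boxes or E2F-type matches. In Rbl1 the letters TTTCGCGC stood 18 to 11 bases before the start, with 1 GC box and 1 CACCC match further upstream. In E2f3 the reverse complement of TTTCCCGC stood 11 to 4 bases before the start, with 1 GC box and 1 CACCC match. E2f2 and E2f3 each have another RefSeq start that is not shown. The window of the other E2f2 start held 1 GC box, 3 CACCC matches and 0 E2F-type matches, and that of E2f3 held 3 GC boxes and 0 CACCC or E2F-type matches. A promoter sequence was matched for 6 of the 9 members, with 8 starts in all, and E2f4, E2f5 and Rb1 were not matched. Among these 6 genes 3 had an E2F-type match (E2f3, E2f7 and Rbl1), 5 a GC box and 4 a CACCC box at 1 start or more. The only matched E2f1 window, chr2:154569427-154569676, lies inside the gene, which spans 154559407 to 154569892 on the minus strand in GENCODE M21 (GRCm38). The bases before that annotated 5′ end were therefore not searched, and the absence of an E2F-type match in E2f1 covers only the window inside the gene. Over 32851 RefSeq promoter windows of the same length, 1.86% held an E2F-type match, 32.7% a GC box and 52% a CACCC box. These shares count single windows, while the gene counts take all matched starts of a gene together. A match describes the letters in this window and shows neither binding nor regulation.

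The libraries held 38566798 to 52930384 counts. Klf13 itself, the check of the labels, was at 36.1 to 39.1 CPM with vehicle and 183.6 to 204.6 CPM with Dox (CPM, counts scaled to library size, here the size corrected by TMM). Of 18067 genes tested with edgeR's quasi-likelihood test, 54.7% passed an adjusted p of 0.05, 25.9% as rises and 28.8% as falls. All 9 members were above 10 CPM in every library, and among the 11629 genes with a mean of at least 5 CPM, fitted by themselves, 70.9% passed, 35% as rises and 35.9% as falls. With upper-quartile scaling the split of all calls moved from 4687 rises and 5203 falls to 6246 and 4457. As markers of a neuronal line, Tubb3 (60.5 to 60.9 CPM with vehicle), Dlg4 and Syn1 were present. Map2, Grin1 and Slc17a7 were under 0.3 CPM in every library, and Syp was at most 0.43 CPM. Of the 12 markers listed, Rbfox3, Nefl, Nefm, Snap25 and Gad1 were not found in the table. Of 4 neuronal markers tested 3 fell and 0 rose, and the 7 markers of the list found in the table summed to 90.9 to 92.1 CPM with vehicle and 29.3 to 30.9 CPM with Dox. Of 9 fibroblast markers tested 7 fell and 0 rose, and the summed level of all 10 was 12478 to 13200 CPM with vehicle and 9985 to 10572 CPM with Dox. Astrocyte markers summed to 37.3 to 40.1 and 44.1 to 47.3 CPM (1 tested, 1 rose), microglia markers to 35.4 to 37.5 and 26.7 to 28.3 CPM (3 tested, 1 rose, 1 fell) and oligodendrocyte markers to at most 2.25 CPM (2 tested, 1 fell). Within the glial lists, Gfap and Cx3cr1 stayed under 0.3 CPM in every library. In group means, the astrocyte marker Slc1a3 rose from 38.4 to 45.7 CPM, and of the microglia markers Tmem119 fell from 30.4 to 19.9 CPM and Ptprc rose from 5.38 to 7.26 CPM. The part of these marker changes in the results below was not tested.

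Among the 9 members 3 rose with Dox (E2f2, E2f8 and E2f5), 4 fell (Rbl1, E2f3, E2f4 and Rb1) and 2 did not pass (E2f1 and E2f7). The 7 of 9 that passed stand beside 54.7% of all genes tested and 70.9% of genes of at least 5 CPM. The Dox and vehicle libraries did not overlap for the same 7 genes, against 64% of all genes tested. That share also covers genes under 5 CPM, and it was not counted for genes of at least 5 CPM alone. The median log2 fold change of the 9 members was -0.092, and that of all genes tested was 0.018.

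**Figure D1:**
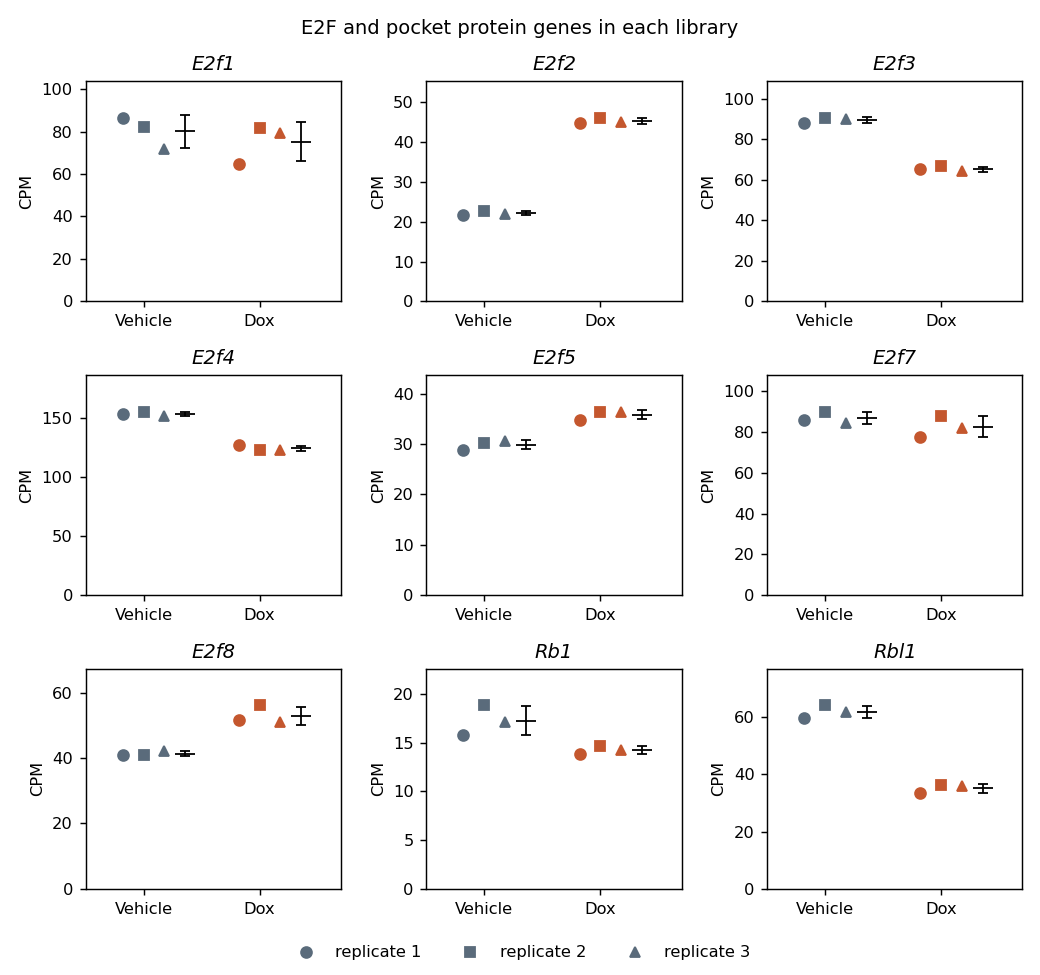
Level of each member in every library (CPM on the vertical axis, from 0) with vehicle (grey) and Dox (orange). Symbols are replicates, and the bar beside them is the mean ± SD (n = 3). E2f2 moved from 21.8 to 22.7 CPM up to 44.8 to 46.1 CPM with Dox, Rbl1 moved from 59.7 to 64.1 CPM down to 33.5 to 36.3 CPM, and the libraries of E2f1 and E2f7 overlapped.

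The activator genes went different ways. E2f2, which encodes an activator that promotes entry into S phase, had the largest change of the 9 members. It was at 21.8, 22.7 and 21.9 CPM in vehicle replicates 1, 2 and 3, and at 44.8, 46.1 and 45.0 CPM in Dox replicates 1, 2 and 3. All Dox libraries were well above all vehicle libraries, and within each group the libraries lay close together. The rise was 2.05-fold (log2 fold change 1.03 ± 0.036 SE, adjusted p = 3.4e-06). E2f2 lies on chromosome 4, 136172394 to 136196057 on the plus strand in GENCODE M21 (GRCm38), where its exons overlap no other gene.

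E2f3 encodes another activator, made from alternative starts as a longer and a shorter form that counts per gene do not separate. Its level was 87.8, 90.6 and 90.1 CPM with vehicle and 65.2, 66.5 and 64.1 CPM with Dox. Every Dox library was lower than every vehicle library. The fall was 1.37-fold (log2 fold change -0.46 ± 0.029 SE, adjusted p = 2.8e-05). Within each library, the ratio of E2f2 to E2f3 per kb of transcript went from 0.262 to 0.270 with vehicle to 0.738 to 0.756 with Dox.

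E2f1, the best known activator, did not pass the test. It was at 86.5, 82.3 and 71.6 CPM with vehicle and 64.6, 81.7 and 79.2 CPM with Dox. Vehicle replicate 3 and Dox replicate 1 were the low libraries of their groups, and the groups overlapped. The log2 fold change was -0.092 ± 0.11 SE (adjusted p = 0.51), with a 95% interval from -0.35 to 0.17, so changes of that size in either direction were not distinguishable from the spread. The sign of the estimate turned without Dox replicate 1 (0.0090), with upper-quartile scaling (0.0017) and with the offset for GC content (0.064).

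Among the repressor E2Fs that work with pocket proteins, E2f4 fell and E2f5 rose. E2f4 encodes the most abundant E2F of many resting cells and a part of the DREAM complex, which silences cell cycle genes. It was at 153.3, 155.5 and 151.8 CPM with vehicle and at 127.1, 123.1 and 123.2 CPM with Dox. The groups did not overlap, and E2f4 fell 1.23-fold (log2 fold change -0.30 ± 0.025 SE, adjusted p = 8.8e-05).

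E2f5, the closest relative of E2f4, was at 28.8, 30.3 and 30.6 CPM with vehicle and 34.8, 36.3 and 36.5 CPM with Dox. All Dox libraries were higher, by less than the rise of E2f2. The rise was 1.198-fold (log2 fold change 0.26 ± 0.041 SE, adjusted p = 0.0019). When a change of over 1.2-fold was asked for, neither gene passed (glmTreat, adjusted p = 0.068 for E2f4 and 0.50 for E2f5).

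Of the atypical repressors, which limit E2F1-driven transcription in S and G2 phase, E2f8 rose and E2f7 did not pass. E2f8 was at 40.8, 40.9 and 42.2 CPM with vehicle and 51.5, 56.1 and 51.1 CPM with Dox. Dox replicate 2 was the highest, and no library of the groups overlapped. The rise was 1.28-fold (log2 fold change 0.36 ± 0.046 SE, adjusted p = 7.0e-04). E2f8 shares 610 exonic bases with Gm2788 on the opposite strand, which had only 12 to 39 counts per library.

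E2f7 was at 86.2, 90.1 and 84.5 CPM with vehicle and 77.7, 88.2 and 82.1 CPM with Dox. The groups overlapped, with Dox replicate 2 above 2 of the 3 vehicle libraries. The log2 fold change was -0.073 ± 0.052 SE (adjusted p = 0.29) with a 95% interval from -0.20 to 0.054. The sign turned with upper-quartile scaling (0.021) and with the offset for transcript length (0.045). In each library the ratio of E2f8 to E2f7 per kb was 0.674 to 0.741 with vehicle and 0.923 to 0.982 with Dox.

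Both pocket protein members fell. Rbl1 encodes a pocket protein that binds chiefly E2F4 and E2F5 and accumulates in cycling cells. It was at 59.7, 64.1 and 61.8 CPM with vehicle and 33.5, 36.3 and 35.9 CPM with Dox. Every Dox library was far below every vehicle library. The fall was 1.76-fold (log2 fold change -0.81 ± 0.046 SE, adjusted p = 1.8e-05). Rbl1 lies on chromosome 2, 157145893 to 157204534 on the minus strand, with no exonic overlap.

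Rb1, the retinoblastoma gene, was the lowest member. It was at 15.8, 18.8 and 17.1 CPM with vehicle and 13.8, 14.7 and 14.3 CPM with Dox. The groups did not overlap, though the vehicle libraries were spread over more than the gap between the groups. The fall was 1.21-fold (log2 fold change -0.28 ± 0.072 SE, adjusted p = 0.017). It did not hold without Dox replicate 1 (-0.25, adjusted p = 0.052), with upper-quartile scaling (-0.18, 0.059), with the length offset (-0.19, 0.069) or against a 1.2-fold change (adjusted p = 0.41). Rb1 shares 408 exonic bases with Lpar6 and 488 with Rcbtb2 on the opposite strand, and the strand setting of the counting is not given. Lpar6 rose (log2 fold change 1.15 ± 0.063 SE, from 11.4 to 25.4 CPM) and Rcbtb2 fell (-0.17 ± 0.055 SE). Their part in the counts of Rb1 was not tested.

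**Figure D2:**
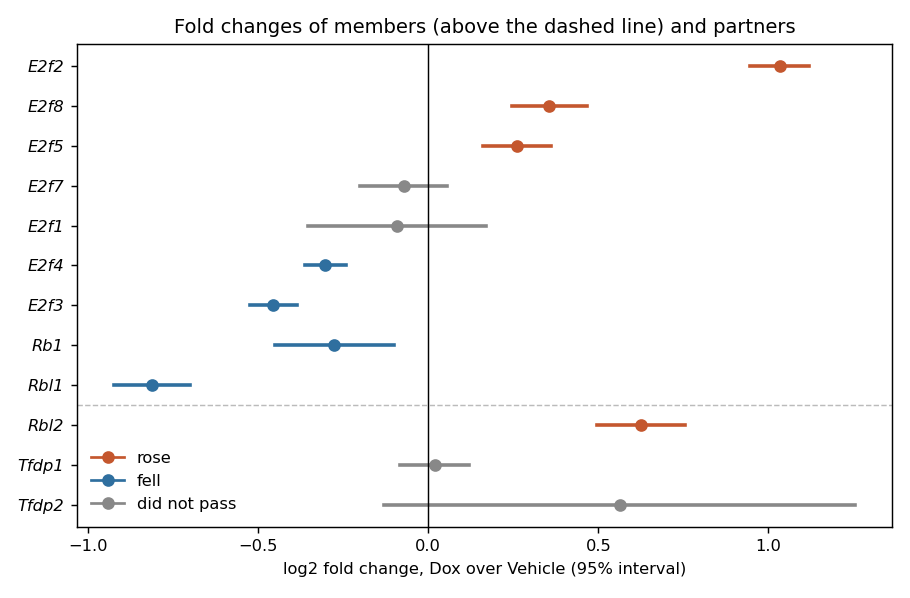
Log2 fold changes of Dox over vehicle (horizontal axis) with 95% intervals for the 9 members, above the dashed line, and for Rbl2, Tfdp1 and Tfdp2, below it. Colours give the edgeR call at an adjusted p of 0.05. E2f2 (1.03) and Rbl1 (-0.81) are the extremes of the members.

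The partners were read from lists beside the members. Rbl2, the third pocket protein gene and the one best known from resting cells, rose where Rbl1 fell. It was at 31.6, 30.2 and 29.8 CPM with vehicle and 46.5, 50.2 and 44.6 CPM with Dox. All Dox libraries were higher, and the rise was 1.54-fold (log2 fold change 0.63 ± 0.054 SE, adjusted p = 1.1e-04). Rbl2 shares 693 exonic bases with Aktip on the opposite strand, which fell (log2 fold change -1.16 ± 0.12 SE, from 24.1 to 10.8 CPM). It also shares 892 with Gm45464, which had 5 to 12 counts per library.

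Tfdp1 and Tfdp2 encode the DP proteins that pair with E2F1 to E2F6. Tfdp1 was at 145.2 to 159.2 CPM with vehicle and 150.4 to 159.3 CPM with Dox, and did not pass (log2 fold change 0.018 ± 0.042 SE, 95% interval -0.083 to 0.12, adjusted p = 0.74). Tfdp2 was at 27.5, 29.2 and 13.5 CPM with vehicle and 37.4, 36.5 and 29.6 CPM with Dox. Its vehicle replicate 3 stood far below the others, and although the groups did not overlap it did not pass (log2 fold change 0.56 ± 0.29 SE, adjusted p = 0.14). Without that library the log2 fold change was 0.28 (adjusted p = 0.096). Of the 3 genes in this list 1 rose and 0 fell. Among all genes tested 54.7% passed either way, and among genes of at least 5 CPM 70.9% did.

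Levels of different genes were compared per kb of the longest annotated transcript, coding ones first, which is an approximation where shorter forms prevail. With vehicle, E2f4 was the most abundant at 77.0 ± 0.93 CPM per kb (SD, n = 3), followed by E2f1 at 29.1 ± 2.8. E2f3 (17.6), E2f5 (16.8) and E2f7 (15.9) came next, of which E2f5 and E2f7 overlapped in their libraries. Rbl1 (12.7), E2f8 (11.2), Rbl2 (6.19), E2f2 (4.67) and Rb1 (3.71) followed in that order without overlap.

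With Dox, E2f4 (62.5 CPM per kb) and E2f1 (27.3) stayed at the head of the order. E2f5 (20.2) came before E2f7 (15.1) and E2f8 (14.3), whose libraries overlapped, and before E2f3 (12.8). E2f2 and Rbl2 (both 9.56) could not be separated, and they stood above Rbl1 (7.24) and Rb1 (3.06). E2f2 stood above Rbl1 with Dox and below it with vehicle.

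The make-up of the pocket protein transcripts differed between the groups in every library. Rbl1 was 55.6 to 56.6% of the summed Rb1, Rbl1 and Rbl2 CPM per kb with vehicle and 35.7 to 37.8% with Dox. Rbl2 was 26.2 to 29.0% with vehicle and 46.4 to 49.0% with Dox. The share of Rb1 overlapped, at 15.4 to 17.3% and 15.1 to 15.7%. The ratio of Rbl2 to Rbl1 was 0.464 to 0.522 with vehicle and 1.23 to 1.37 with Dox.

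The shares of the E2F classes moved less. E2f4 and E2f5 made up 53.8 to 55.4% of the 7 E2f genes with vehicle and 49.5 to 53.0% with Dox. The activators E2f1 to E2f3 made up 28.7 to 30.7% and 29.1 to 31.6%, with overlapping libraries. Within the activators, E2f2 was 8.64 to 9.58% with vehicle and 18.6 to 20.7% with Dox. E2f7 and E2f8 made up 15.5 to 15.9% with vehicle and 17.8 to 18.9% with Dox. The 7 genes together summed to 168.6 to 175.1 CPM per kb with vehicle and 157.2 to 165.9 CPM per kb with Dox.

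**Figure D3:**
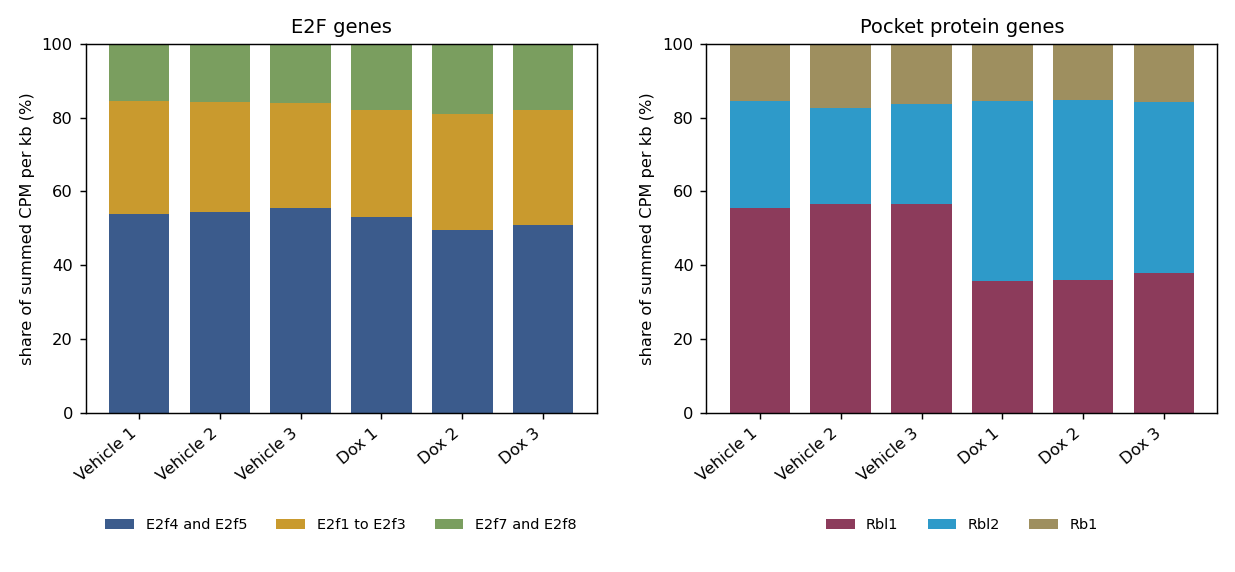
Shares of summed CPM per kb (vertical axis, percent) in each of the 6 libraries, for the 7 E2f genes by class (left) and for the 3 pocket protein genes (right). Rbl1 is the largest pocket share in the vehicle libraries (55.6 to 56.6%) and Rbl2 in the Dox libraries (46.4 to 49.0%).

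The MuvB core and its partners join E2F4 and the pocket proteins in the DREAM complex, or B-MYB and FOXM1 in its activating form. Among its 8 tested genes there were 3 rises and 3 falls, while 2 did not pass, and the median log2 fold change was -0.058. The share called, 75%, was near the 70.9% of genes of at least 5 CPM. Mybl2, which encodes B-MYB and is an E2F target, averaged 89.6 ± 2.2 CPM in the vehicle libraries and 167.9 ± 3.1 CPM in the Dox libraries (mean ± SD, n = 3). This was a rise of 1.87-fold. Mybl1, its relative A-MYB, averaged 47.7 ± 2.4 CPM in the vehicle libraries and 11.5 ± 0.40 CPM in the Dox libraries. This was a fall of 4.16-fold. The core subunit genes Lin9 (1.35-fold) and Lin52 (1.63-fold) rose, and Lin37 (1.34-fold) and Lin54 (1.499-fold) fell. The other 2 genes, Foxm1 and Rbbp4, did not pass, with log2 fold changes of -0.086 and -0.031.

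E2F6 works in a Polycomb-type repressor complex, whose genes were also counted. Among its 12 tested genes there were 8 falls and 1 rise, while 3 did not pass, and the median log2 fold change was -0.27. The share called either way, 75%, was near the 70.9% of genes of at least 5 CPM, of which 35.9% fell. Rnf2, a ubiquitin ligase of the complex, averaged 63.4 ± 3.2 CPM in the vehicle libraries and 25.2 ± 1.4 CPM in the Dox libraries (mean ± SD, n = 3). This was a fall of 2.52-fold. The related adaptor genes Yaf2 and Rybp fell 1.91-fold and 1.79-fold. L3mbtl2, which reads methylated histones, rose 1.41-fold. Rnf2 and L3mbtl2 share exonic sequence with Trmt1l and Chadl on the opposite strand.

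Upstream of the pocket proteins, 12 genes of G1 cyclins, kinases and kinase inhibitors were tested. Of these 6 fell, 2 rose and 4 did not pass, with a median log2 fold change of -0.18. The share called, 66.7%, was near the 70.9% of genes of at least 5 CPM. Cdk2, the kinase partner of cyclin E, averaged 59.4 ± 2.6 CPM in the vehicle libraries and 27.6 ± 3.4 CPM in the Dox libraries (mean ± SD, n = 3). This was a fall of 2.15-fold. Cdk6, which phosphorylates RB with D cyclins, fell 1.45-fold, and Ccnd2, a D cyclin, fell 1.27-fold. Ccne2, a cyclin E gene, rose 1.23-fold, and Cdkn2c, an inhibitor of CDK4 and CDK6, rose 1.14-fold, but neither passed against a 1.2-fold change (glmTreat, adjusted p = 0.20 and 1). Ccne2, Cdk6 and Ccnd2 share exonic sequence with genes on the opposite strand.

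Genes known as E2F targets mostly rose. Of 51 tested genes of this list 35 rose, 6 fell and 10 did not pass, beside 25.9% of all genes tested, and 35% of genes of at least 5 CPM, that rose. The median log2 fold change was 0.27, and the summed level of the list was 6774 to 7070 CPM with vehicle and 8508 to 8679 CPM with Dox. Rrm2, a subunit of ribonucleotide reductase, had the largest rise at 2.12-fold. Mcm3, part of the replicative helicase, averaged 347.4 ± 5.3 CPM in the vehicle libraries and 543.8 ± 3.0 CPM in the Dox libraries (mean ± SD, n = 3). This was a rise of 1.57-fold. Mybl2 is also in this list. Gins2, another helicase component, fell 2.17-fold, Msh6, a mismatch repair gene, fell 1.37-fold, and Lig1, the replicative DNA ligase gene, fell 1.36-fold. Gins2 and Lig1 share exonic sequence with Gse1 and Zswim9 on the opposite strand. The targets and the members are different genes of the same 6 libraries, so the count adds no independent sample. The list was also chosen with earlier results of these data known, so the count is descriptive only.

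**Figure D4:**
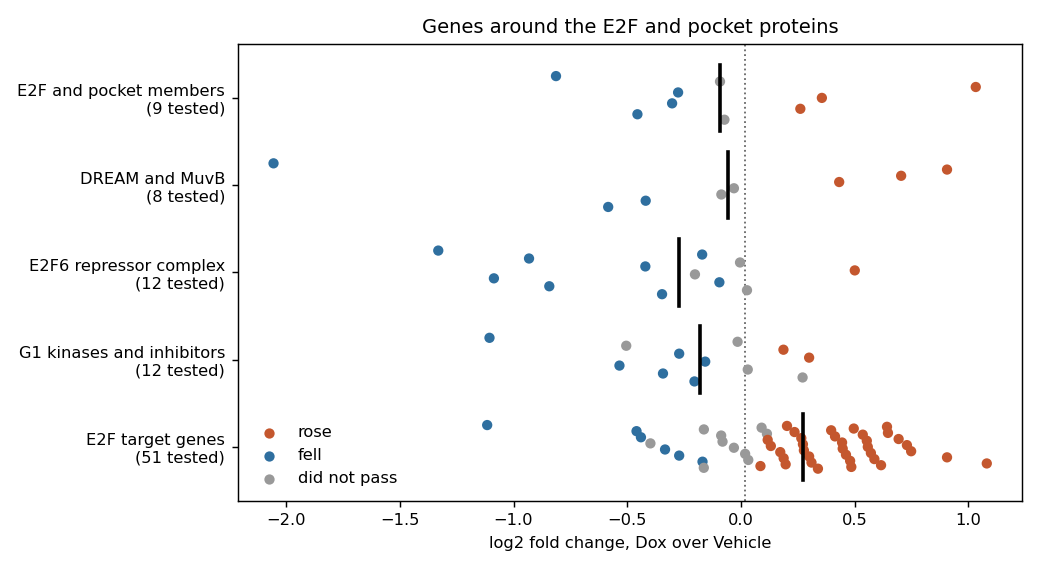
Log2 fold change of every tested gene (points, horizontal axis) in the members and 4 lists around them, coloured by the edgeR call, with the list median as a black bar. The dotted line is the median of all genes tested (0.018). The E2F targets have a median of 0.27 and the genes of the E2F6 repressor complex one of -0.27.

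In the authors' deposited table, 6 of the 9 members are called, at an adjusted p under 0.01, and 40.3% of the genes with an adjusted p there are called. That table gives log2 fold changes of 1.03 for E2f2, -0.81 for Rbl1, -0.45 for E2f3, -0.30 for E2f4, 0.35 for E2f8 and 0.26 for E2f5. In the same authors' deposited table Rb1 is not called (-0.27, adjusted p = 0.015), nor are E2f1 (-0.089) and E2f7 (-0.071).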

How the data were processed

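RNA sequencing was analysed for 6 libraries (3 Dox, 3 vehicle). Per the submitters' processing notes the tools were HISAT2 2.1.0, StringTie 1.3.3, FastQC 0.11.3 and DESeq2 on GRCm38, without stated roles. The sources used here do not give strand setting, annotation or the handling of shared reads. The authors deposited whole-number counts per gene symbol, and a table that, per the file headers, holds a mean normalized signal, log2 fold changes with errors, a test statistic or score, and p-values.

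Genes were filtered with filterByExpr, scaled by TMM and tested with edgeR 4.0.16 (glmQLFit, glmQLFTest, R 4.3.3) on all 6 libraries, Benjamini-Hochberg threshold 0.05 over 18067 genes. Each SE was obtained by dividing the log2 fold change by the root of the F statistic. Alternatives used limma 3.58.1 and DESeq2 1.42.0. The fit was tested on simulated data with 50 genes changed at each of 4 sizes. It recovered 6 of the 50 changes of 1.25-fold, 29 of 1.5-fold, 39 of 2-fold and 47 of 4-fold. Of 17590 unchanged genes 7 were called. Far fewer genes were changed in the simulation than passed in the real data, so its recovery need not hold here.

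GENCODE M21 (GRCm38) matched 27367 symbols, giving coordinates, length, GC content and exonic overlaps of 50 bases or more. Members and lists were chosen with earlier results of these data known. Named genes were all members, Klf13, Tfdp1, Tfdp2, Rbl2, and up to 3 rises and 3 falls with the smallest p of each other list except cell type markers. Marker genes, overlapping genes, Foxm1 and Rbbp4 were named after their values were seen. A further part of the rule, on genes correlated with E2f1, is not reported here. No library repeated another, since replicate pairs had a chi-square of 12.1 to 15.1 per degree of freedom. No permutation test was run, because with 3 against 3 libraries its smallest exact p is 0.1.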

Additional observations from a re-analysis of the deposited data

How the results depend on the processing

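Of the 9 members, 7 passed with DESeq2 size factors, DESeq2, limma-voom, no filter, the filter at 5 CPM and the GC offset, 6 with upper-quartile scaling, the length offset and an adjusted p under 0.01, and 6 to 7 without any 1 library. The member that dropped out was Rb1 each time. Against a 1.2-fold change (glmTreat) 4 members passed, as did 25 of the 51 E2F targets and 33.4% of all genes tested. That test asks for a larger change. Otherwise 39 to 44 targets passed, and 39 to 42 without any 1 library. The share of all genes tested that passed was 31.6% with no filter, 70.9% with the filter at 5 CPM and 59.2% with upper-quartile scaling. It was 43% at an adjusted p under 0.01 and 49.3 to 55.5% with DESeq2 size factors, DESeq2, limma-voom and the 2 offsets. Without any 1 library it was 48.6 to 50.4%. E2f2, E2f3, E2f8 and Rbl1 passed in the same direction in all 17 alternatives, with log2 fold changes of 1.02 to 1.14, -0.47 to -0.35, 0.31 to 0.45 and -0.86 to -0.72. Signs turned only for genes that did not pass: E2f1 with upper-quartile scaling (0.0017), the GC offset (0.064) and without Dox replicate 1 (0.0090, in a range from -0.17 over the fits without 1 library), E2f7 with upper-quartile scaling (0.021) and the length offset (0.045), and Tfdp1 with the length offset (-0.0045), the GC offset (-0.012) and without Vehicle replicate 2 (-0.021, in a range up to 0.044). The cause was not tested. The groups share replicate numbers, but same-numbered libraries deviated together only weakly (correlations 0.062, 0.025 and -0.064 over 14652 genes). With a replicate block 7 members, 42 targets and 53.7% of all genes tested passed, and Tfdp2 passed too (log2 fold change 0.63, adjusted p = 0.045). Each member had at least 589 counts in every library, and with 3 libraries a group the spread between libraries limited what could be told of small changes.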

Other observations

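E2F6 is known for silencing germline genes in body cells, and a list of such genes was looked up. E2f6 itself is not analysed here. Of 11 symbols 4 were in the table (Stag3, Tuba3a, Tuba3b and Meioc), and these 4 were barely detected. Together they summed to 0.328 to 0.345 CPM with vehicle and 0.399 to 0.892 CPM with Dox. Symbols without a row show nothing of the level of their genes. Only Meioc could be tested, and it did not pass (0.258 CPM with vehicle and 0.461 CPM with Dox, adjusted p = 0.082 by edgeR).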
